A study of Mus musculus with 36 samples.

Results

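The cardiac myosin heavy and light chains are described here across the hearts of CUG960 mice, a mouse model of myotonic dystrophy type 1 (DM1). The group held 9 genes, chosen by symbol from the 55291 gene symbols of the count and TPM tables: the heavy chains Myh6, Myh7 and Myh7b, the light chains Myl1, Myl2, Myl3, Myl4 and Myl7, and the light chain kinase Mylk3. The rule uses symbols only, and all 9 passed the filter on low counts. RNA was measured by poly(A) RNA-Seq in the left ventricle and in the atria at 21 weeks of age, in 6 cohorts with 3 libraries per cohort and chamber, 36 libraries in all. Every mouse carried TREDT960I (Hom) and MHCrtTA (Hem), so that doxycycline (dox) turned on a repeat-containing (CUG exp) RNA in heart muscle cells. The rtTA that drives it is itself under the promoter of Myh6, in all cohorts.

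The +dox cohort received dox from postnatal day 1 to the end and made the CUG exp RNA throughout. The –dox cohort never received dox. The +/–dox cohort was taken off dox at 9 weeks of age, which shut off the RNA. In the remaining 3 cohorts, named MBNL1, MBNL2 and MBNL1+MBNL2 for what they received, dox was continued and AAV9 was injected by tail vein at 9 weeks of age, with vectors that express these RNA-binding proteins from a cardiac troponin T promoter. No cohort given a control virus was among the RNA libraries, so virus delivery and MBNL expression cannot be told apart here. The comparisons ask how far the level of each myosin RNA differed from +dox when the CUG exp RNA was absent, was shut off, or was met with more MBNL protein.

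Cardiac muscle contracts when the heads of myosin heavy chains pull on actin filaments, and each heavy chain carries an essential and a regulatory light chain on its neck. The adult mouse heart relies on the fast α heavy chain (Myh6), whereas the slower β chain (Myh7) dominates before birth and returns in stressed or hypothyroid hearts. Ventricular muscle uses Myl2 as regulatory and Myl3 as essential light chain, and atrial muscle uses Myl7 and Myl4 in their places. Myl1 encodes the essential light chains of fast skeletal muscle, Mylk3 is the cardiac kinase that phosphorylates the regulatory light chain, and Myh7b is an ancient heavy chain gene best known as the host of a microRNA.

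Both α and β heavy chain genes lie in tandem on the minus strand of mouse chromosome 14 (GRCm38), Myh6 at 54941921 to 54966927 and Myh7 at 54970684 to 54994626. Myh7b lies on chromosome 2 at 155611212 to 155634307. Each of the 3 heavy chain genes holds a microRNA on its own strand, outside its exons, and these "myomiRs" are known to control one another's hosts. Their mature sequences, from RefSeq on GRCm38.p6, are shown because they are the feature that the 3 host genes have in common; capitals mark the seed, bases 2 to 8.
mmu-miR-208a-3p, host Myh6, chr14:54949072-54949093, minus strand: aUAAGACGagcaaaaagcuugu
mmu-miR-208b-3p, host Myh7, chr14:54975710-54975731, minus strand: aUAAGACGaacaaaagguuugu
mmu-miR-499-5p, host Myh7b, chr2:155622893-155622913, plus strand: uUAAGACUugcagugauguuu
The microRNAs of Myh6 and Myh7 shared the seed UAAGACG, and that of Myh7b had the seed UAAGACU. The 3 microRNA genes were listed at 0 in all libraries, as poly(A) selection does not capture such short RNAs, so the values below are those of the host messages only.

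The light chain genes are scattered over the genome. Myl1 lies on chromosome 1 at 66924295 to 66945404, Myl2 on chromosome 5 at 122100951 to 122113472 and Myl3 on chromosome 9 at 110741861 to 110769798. The atrial genes Myl4 and Myl7 share chromosome 11, at 104550663 to 104595753 and at 5896637 to 5898782. Mylk3 is on chromosome 8 at 85324303 to 85386345. Of the 150-base windows of the Myh6 transcript, 5.53% also occurred in Myh7, so a small part of the reads of that pair could be split between them; Myl1 shared 1.93% of its windows with the pseudogene Mylf-ps, and the other members shared none. Exons of Myh7b overlapped the span of the more abundant Trpc4ap, which starts at 155634271, and exons of Myl3 that of Pth1r, which ends at 110747145. Both neighbors are on the opposite strand. Counts of Pth1r reached at most 114% of those of Myl3 in any 1 library. The use of strand in the counting is not given in the sources used here, so reads in these overlaps cannot be assigned with certainty.

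Totals of the expected counts ranged from 55.0 to 97.1 M per library, and the 9 genes together took 3.29% to 5.72% of them. The atrial markers Sln and Bmp10 and the ventricular marker Irx4 followed the chamber labels in all 36 libraries. Of the defining skeletal muscle markers, Myh4 was at or below 0.02 TPM and Mylpf at or below 1.56 TPM. The ventricular MBNL1 replicate 1 listed 16885 genes above 0, fewer than any other library, and in 5 of the 6 cohorts replicate 3 was the only one with high Xist in both chambers. The library names fall into 2 series of numbers, here library sets A and B, and in those 5 cohorts replicates 1 and 2 were in set A and replicate 3 in set B. Sex, replicate number and library set therefore cannot be told apart in them. In the MBNL1+MBNL2 cohort all 6 libraries were in set B and none had high Xist, so its comparisons with any other cohort also differ in the mix of library sets and sexes, which cannot be told apart from the treatment. Per the study's sample list, both chambers came from the same mice.

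By length-scaled level (TPM), a few of these genes made up most of the group's RNA in each chamber, and the order of the members changed between chambers. In the 18 ventricular libraries the median TPM was 17220 for Myl2, 6708 for Myl3 and 6010 for Myh6, followed by 305 for Myh7 and 224 for Mylk3. Below these came Myl7 at 82.4, Myl4 at 74.4, Myl1 at 72.7 and Myh7b at 10.95 TPM. Myl2 was above Myl3 in all 18 ventricular libraries, whereas Myl3 was above Myh6 in 14 of 18 and Myl4 above Myl1 in 8 of 18, so these last neighbors did not separate. In the 18 atrial libraries the order was led by Myl7 at a median of 10645, Myl4 at 9980 and Myh6 at 9349 TPM. Myl7 was above Myl4 in 16 atrial libraries and Myl4 above Myh6 in 12, so that the leading 3 overlapped. Next came Myl1 at 791, Mylk3 at 413 and Myh7 at 283 TPM, and then the ventricular light chains Myl2 at 70.7 and Myl3 at 28.4 TPM. Myh7b was lowest, at 0.15 TPM.

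**Figure D1:**
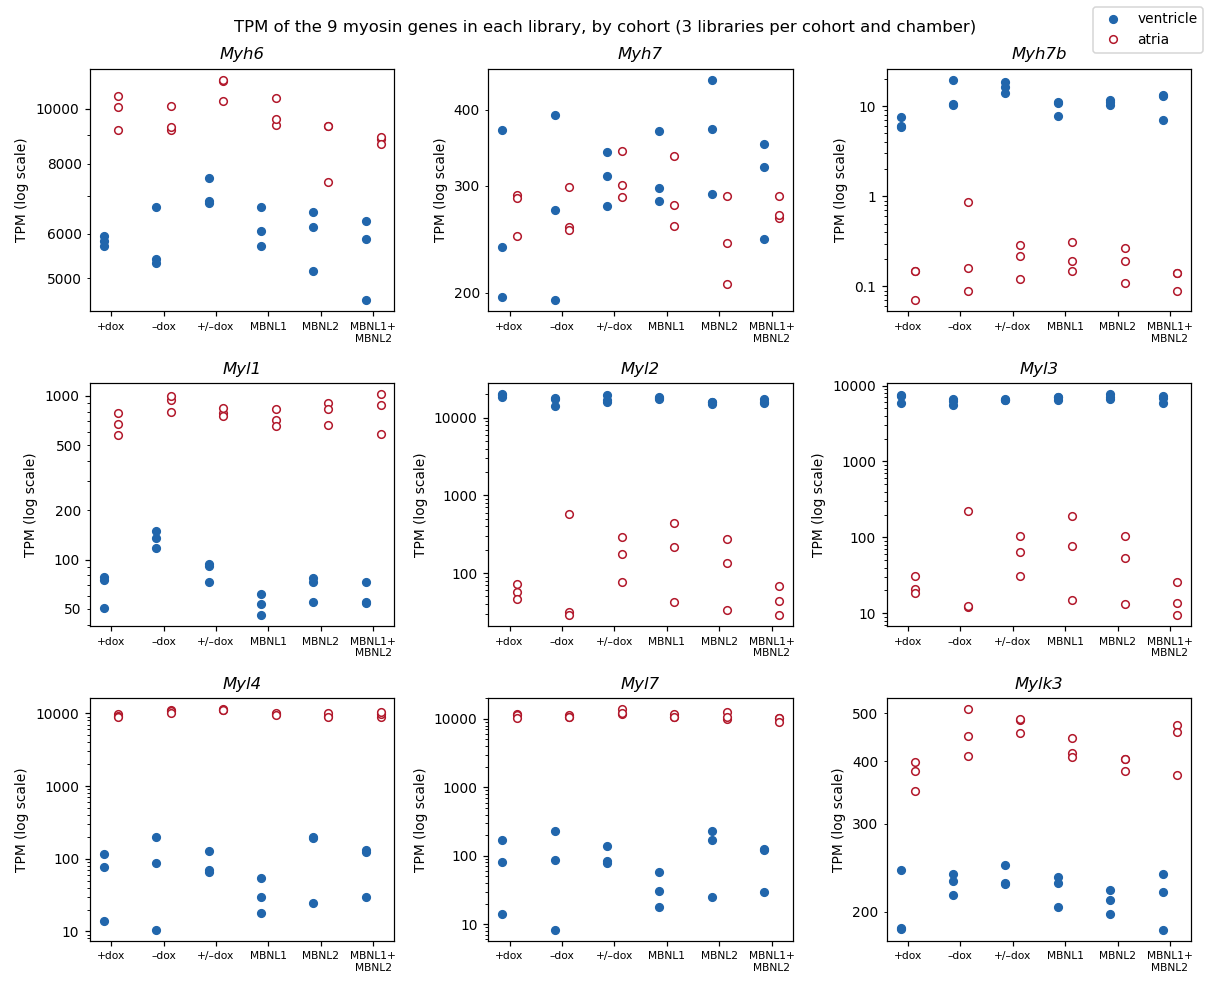
TPM (log scale, its range set for each gene) of the 9 genes in every library, by cohort, with ventricular libraries as filled and atrial libraries as open circles. Myl2, Myl3 and Myh7b lie higher in all ventricular libraries, Myl4, Myl7, Myl1, Mylk3 and Myh6 higher in the atrial libraries of the same cohort (for Myh6, 7429 to 11274 TPM against 4570 to 7544), and Myl4 and Myl7 in ventricle and Myl2 and Myl3 in atria spread most.

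The difference between chambers was tested in the –dox cohort, which never received dox. Here and below, a gene was called when its adjusted p was under 0.05 and its fold change at least 1.5, in a quasi-likelihood fit of the counts of all 36 libraries. Between atria and ventricle 7 of the 9 genes were called, where 24.9% of the 19231 tested genes were. This fit treats the 2 chambers of a mouse as independent. With same-numbered libraries as a block, the call of Myh7 was lost and no other. DESeq2 called 6 members, as it gave no adjusted p for Myl2. The 4 chamber-specific light chains differed by the most: Myl4 was 74.0-fold higher in atria (log2 fold change 6.21 ± 0.90 SE, adjusted p = 3.15e-06) and Myl7 69.6-fold higher (6.12 ± 0.94, adjusted p = 7.36e-06). Myl2 was 118-fold lower in atria (log2 -6.88 ± 1.02, adjusted p = 4.32e-06) and Myl3 116-fold lower (-6.85 ± 1.04, adjusted p = 6.02e-06). Libraries of this cohort held unequal signal of the other chamber for these 4 genes, with values given with each gene.

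Myh7b and Myl1 also differed between the chambers. Myh7b was 54.8-fold lower in atria (log2 -5.77 ± 0.49, adjusted p = 3.61e-10), and Myl1 was 4.72-fold higher in atria (2.24 ± 0.22, adjusted p = 4.07e-09). In –dox mice Myl1 stood at 944, 1000 and 793 TPM in the atria and at 135, 150 and 117 TPM in the ventricle, with no overlap. Myh7 was 1.53-fold lower in atria (log2 -0.62 ± 0.19, adjusted p = 0.0111) on the scale of the counts, which are normalized to the library. That call rested on the scale and on 1 library: with limma on log2(TPM + 1) the difference was -0.03 (adjusted p = 0.907), and without –dox ventricular replicate 3 it was -0.39 (adjusted p = 0.130). The replicate numbers paired the 2 chambers of the –dox mice, and with each pair as a block Myh7 was at -0.57 (adjusted p = 0.0385), under the fold cutoff. On the TPM scale the median of all tested genes was higher by 0.29 in this comparison.

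Myh6 differed by 0.18 ± 0.09 between the chambers on the count scale (adjusted p = 0.127) and Mylk3 by 0.44 ± 0.09 (adjusted p = 0.000188), the latter under the fold cutoff; 42.6% of all genes passed the adjusted p alone. On the log2(TPM + 1) scale both were called higher in atria, at 0.72 and 0.99.

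The α and β heavy chains, the pair whose balance is best known to shift in a failing rodent heart, did not differ by the call between +dox and any other cohort in either chamber. In the ventricle Myh6 was at 5824, 5706 and 5941 TPM in +dox, at 5405, 5318 and 6693 in –dox and at 6817, 6861 and 7544 in +/–dox. The +/–dox values lay above all 3 +dox values, a change of 1.21-fold (log2 0.28 ± 0.09, 95% interval 0.09 to 0.47, adjusted p = 0.0272) that was below the fold cutoff, where 21.8% of genes passed the adjusted p alone. In a fit of the ventricular libraries only it did not pass (0.29, adjusted p = 0.0598), and with 1 library left out the adjusted p reached 0.109. Against +dox, the log2 fold change of ventricular Myh6 was 0.02 in –dox, 0.04 in MBNL1, -0.11 in MBNL2 and -0.13 in MBNL1+MBNL2 mice, each with an interval of about 0.19 to either side.

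Myh7 varied widely within cohorts. Ventricular levels were 371, 238 and 197 TPM in +dox, 194, 273 and 393 in –dox and 278, 311 and 341 in +/–dox. The MBNL1 libraries held 283, 369 and 298 TPM, the MBNL2 libraries 449, 372 and 291, and the MBNL1+MBNL2 libraries 322, 351 and 245. All 5 cohorts overlapped +dox, and the largest estimate, 0.30 ± 0.19 in MBNL2 mice, had a 95% interval from -0.09 to 0.70. In the atria Myh7 ran from 207 to 342 TPM over all cohorts.

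Myh7 made up a small share of the summed TPM of Myh6 and Myh7 in each library. The share was 4.40% ± 1.43 (SD, n = 3) in ventricular +dox, 4.63% ± 1.06 in –dox and 4.19% ± 0.241 in +/–dox libraries. It was 4.90% ± 0.751 in MBNL1, 5.98% ± 1.90 in MBNL2 and 5.20% ± 0.408 in MBNL1+MBNL2 mice. The ventricular shares ran from 3.21% to 8.01% and overlapped between all cohorts but +/–dox and MBNL1+MBNL2, while the atrial shares ran only from 2.53% to 3.14%. The highest ventricular share belonged to MBNL2 replicate 1 and the lowest to +dox replicate 3. Mhrt, an antisense RNA that overlaps exons at the end of Myh7, had counts of up to 6.41% of those of Myh7, and was not called in any comparison with +dox.

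**Figure D2:**
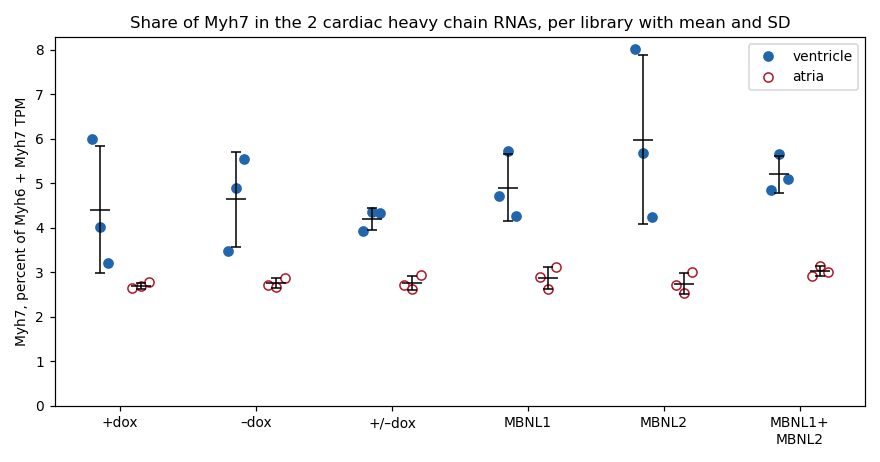
Myh7 as percent of the summed TPM of Myh6 and Myh7 in each library, by cohort (filled, ventricle; open, atria), with the mean and SD of 3 libraries in black. The axis starts at 0; every ventricular library (3.21% or more) lies above every atrial one (3.14% or less), and the ventricular cohorts overlap +dox.

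Myl1 and Myh7b were called against +dox, 1 in each of the comparisons with mice off dox and without the repeat RNA, and both in the ventricle. In –dox against +dox 1 of 9 members was called, beside 7.6% of all tested genes, and in +/–dox against +dox 1 of 9, beside 6.6%. With so few members these counts lie near the background and say nothing about the group as a whole; the median log2 fold change of the members was 0.20 and 0.26, beside 0.01 and 0.00 for all genes.

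Myl1 was the member called in –dox. Its ventricular level was 78.7, 50.3 and 74.9 TPM in +dox and 135, 150 and 117 TPM in –dox. All –dox libraries lay above all 15 others. The rise against +dox was 2.04-fold (95% interval 1.50 to 2.78, log2 1.03 ± 0.22, adjusted p = 0.00115), and it stayed called under each of 11 alternatives and when any 1 of the 6 compared libraries was omitted. In +/–dox mice Myl1 was at 94.1, 91.9 and 72.5 TPM, 1.32-fold of +dox (log2 0.40 ± 0.22, 95% interval -0.05 to 0.84, adjusted p = 0.206). Between –dox and +/–dox the difference of 0.63 ± 0.22 did not pass (adjusted p = 0.424).

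None of the MBNL cohorts was called for Myl1. The libraries held 53.8, 61.6 and 45.8 TPM in MBNL1, 72.7, 54.7 and 77.5 in MBNL2 and 72.8, 54.1 and 54.7 in MBNL1+MBNL2 mice. Each of these cohorts overlapped +dox, with log2 fold changes of -0.37 ± 0.22, -0.12 ± 0.22 and -0.22 ± 0.22. Set against +/–dox, the MBNL1 cohort was lower by the margin nearest to a call, at log2 -0.77 ± 0.22 (adjusted p = 0.0549).

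Myl1 is also made in atrial and in fast skeletal muscle, and the values that bear on both were read beside it. The atrial part of ventricular Myl1, if measured by how much Myl7 each library held relative to the atria of its cohort, came to 0.697, 18.9 and 7.34 TPM in the –dox libraries and to 4.85, 10.2 and 0.846 TPM in the +dox libraries. Less that part, Myl1 was 125 ± 13.2 TPM in –dox and 62.6 ± 19.6 TPM in +dox (SD, n = 3). With the atrial part taken off in this way, all 3 –dox libraries lay above all +dox libraries. Other atrial markers would give other parts: in –dox replicate 2 Bmp10 stood at 0.119% of its atrial level and Myl7 at 2.08%. With the level of the atrial gene Sln as a term in a fit of the ventricular libraries, a step added after the values were seen, Myl1 also stayed called. The part of atrial tissue in the Myl1 result was not tested further.

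Of the 9 skeletal muscle markers, 7 were tested and 0 called between –dox and +dox in the ventricle. Their summed level was 389 to 884 TPM in –dox and 184 to 332.5 TPM in +dox, nearly all of it Acta1, which the heart also makes. Without Acta1 the sum was 1.27 to 2.10 TPM in –dox and 1.08 to 1.42 TPM in +dox, far below that of Myl1. Myh4 was at 0 in 17 of 18 ventricular libraries. With Acta1 the sums did not overlap between the cohorts and without it they did, and their part in the Myl1 result was not tested further. In whole tissue, fewer cells of a type and less RNA per cell cannot be told apart.

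Markers of other cell types also differed between these ventricular cohorts. The 2 blood markers summed to 187 to 623 TPM in +dox, 918 to 2028 in –dox and 1135 to 1462 in +/–dox libraries. The 2 endothelial markers summed to 84.3 to 93.3 TPM in +dox, 104 to 134 in –dox and 110 to 121 in +/–dox libraries. For the 5 cardiomyocyte markers the sums were 20666 to 21934 TPM in +dox, 22766 to 23641 in –dox and 25559 to 26043 in +/–dox. In these 3 lists +dox lay below both other cohorts with no overlap, while the fibroblast and smooth muscle sums of –dox overlapped those of +dox. In +/–dox the fibroblast sum, at 604 to 663 TPM, lay above the 550 to 590 TPM of +dox. No blood or endothelial marker was called in –dox or +/–dox, and their part in the results of Myl1, Myh6 and Myh7b was not tested.

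The 3 genes most like Myl1 over the 18 ventricular libraries, among 8543 genes by Pearson correlation of log2 CPM, were Slc30a1 (r = 0.87), a zinc exporter, Zwint (0.86), a kinetochore protein, and Wdr36 (0.86), which acts in ribosome assembly. In the atria, where Myl1 was higher in every library, the –dox values of 944, 1000 and 793 TPM lay just above those of +dox, at 790, 576 and 669 TPM. The atrial log2 fold change of 0.47 ± 0.21 was not called (adjusted p = 0.136). Of the same skeletal muscle markers, Tnnt3 and Tnni2 were called higher in –dox atria, where the sum without Acta1 was 5.80 to 6.36 TPM against 1.93 to 2.29 TPM in +dox.

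Myh7b was the member called in +/–dox, again in the ventricle. Its level was lowest in +dox, at 5.82, 7.57 and 6.12 TPM. It reached 14.04, 16.3 and 18.8 TPM in +/–dox and 10.5, 10.3 and 19.8 TPM in –dox, above all +dox libraries in both. The +/–dox cohort was 2.50-fold higher than +dox (95% interval 1.44 to 4.34, log2 1.32 ± 0.39, adjusted p = 0.0148). This call was lost without +dox replicate 1 (1.25, adjusted p = 0.0633) and without +dox replicate 3 (1.23, adjusted p = 0.0568).

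The –dox cohort came close to the threshold, at 2.08-fold (95% interval 1.20 to 3.60, log2 1.06 ± 0.38, adjusted p = 0.0514), and was called when only ventricular libraries were fitted (1.06, adjusted p = 0.00805). Atrial counts of Myh7b were as low as 26, and the fit of all libraries takes 1 estimate of its spread over both chambers. The –dox value also rested on replicate 3, at 19.8 TPM, without which the log2 fold change was 0.75 (adjusted p = 0.249).

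In the MBNL cohorts the mean level of ventricular Myh7b lay between those of +dox and +/–dox, at 9.98, 11.1 and 11.1 TPM beside 6.50 and 16.4 TPM. It was 7.86, 10.8 and 11.3 TPM in MBNL1, 10.4, 11.1 and 11.8 TPM in MBNL2 and 13.1, 13.3 and 6.97 TPM in MBNL1+MBNL2 mice. The MBNL1 and MBNL2 libraries were all above +dox, and 1 MBNL1+MBNL2 library was within it. The log2 fold changes of 0.56 ± 0.38, 0.61 ± 0.38 and 0.68 ± 0.38 were not called (adjusted p = 0.379, 0.368 and 0.305), and their 95% intervals reached from -0.22, -0.17 and -0.10 to 1.35, 1.40 and 1.47.

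**Figure D3:**
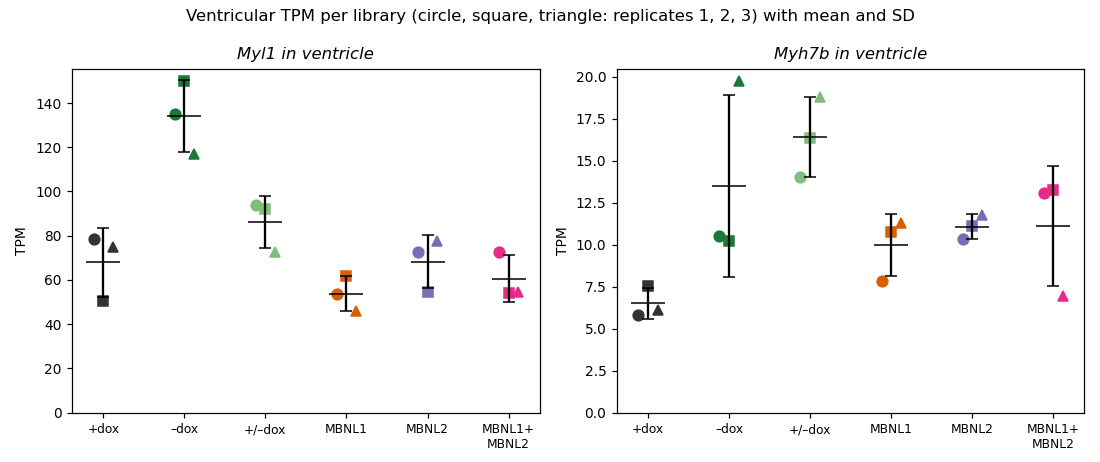
Ventricular TPM of Myl1 (left) and Myh7b (right) in each library by cohort, with symbols for replicates 1 to 3 and the mean and SD of 3 libraries; the axes start at 0. For Myl1 the 3 –dox libraries (117 to 150 TPM) stand above all others, and for Myh7b the +dox libraries (5.82 to 7.57 TPM) lie below all –dox, +/–dox, MBNL1 and MBNL2 libraries.

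The ventricular light chains Myl2 and Myl3 were not called against +dox in the ventricle in any cohort. Over all 18 libraries Myl2 ran from 14193 to 20122 TPM and Myl3 from 5574 to 7703 TPM. Myl2 was at 20122, 19435 and 18537 TPM in +dox and lower in all 3 MBNL2 libraries, at 15005, 16130 and 16121 TPM. All libraries of –dox (14193 to 18000 TPM), MBNL1 (17237 to 18442 TPM) and MBNL1+MBNL2 mice (15611 to 17204 TPM) also lay below those of +dox. The +/–dox libraries, at 16146 to 19655 TPM, overlapped +dox. In a fit of the ventricular libraries alone, the difference of MBNL2 from +dox was -0.40 on the log2 scale (95% interval -0.58 to -0.22, adjusted p = 0.0232), under the fold cutoff. For Myl3 the same fits gave intervals within -0.32 and 0.18 in every cohort. In the fit of all libraries the intervals were wider, from -1.79 to 1.46 for Myl2 in –dox, as the spread is estimated with the atria.

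In the atria Myl2 and Myl3 swung between libraries. Myl2 was at 57.7, 46.8 and 73.0 TPM in +dox and at 31.4, 28.7 and 581 TPM in –dox. It was at 288, 76.5 and 178 in +/–dox, at 436, 217 and 42.1 in MBNL1, at 274, 33.1 and 135 in MBNL2 and at 68.5, 43.0 and 28.9 TPM in MBNL1+MBNL2 mice. Single libraries held most of it, such as –dox replicate 3 and MBNL1 replicate 1, and no cohort was called although the log2 fold changes reached 1.99 for Myl2 and 2.06 for Myl3 in MBNL1 mice (adjusted p = 0.504 and 0.496).

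The ventricular transcription factor Irx4 moved with them. Over the 18 atrial libraries, with cohort means removed, log2(TPM + 1) of Myl2 correlated with that of Irx4 at r = 0.84 (Spearman's rho 0.81) and of Myl3 at r = 0.86 (rho 0.82). Two-sided exact permutation of libraries within cohorts gave adjusted p = 0.00206 for both values of r and 0.00257 for both values of rho. Without the libraries farthest from the Irx4 median, MBNL1 replicate 1 and +/–dox replicate 1, r was 0.88 and 0.87. Myh7b correlated at r = 0.72 (rho 0.87; exact permutation, adjusted p = 0.00343 and 0.00309), and at 0.81 without the same libraries. These 3 pairs were chosen after the values were seen, and atrial Irx4 counts were only 1 to 49.

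As a percent of the ventricular mean of the same cohort, Myl2 stood at 0.174 to 3.51% in the atrial libraries, Myl3 at 0.142 to 3.61% and Irx4 at 0.0623 to 2.93%. The 3 genes thus rose and fell over a like range. Myh7b ran from 0.666 to 6.44%, the highest in –dox replicate 3, as for Myl2 and Myl3. For atrial Myh7b in –dox, at 0.16, 0.09 and 0.87 TPM, the log2 fold change of 1.55 ± 0.57 against +dox (adjusted p = 0.0653) turned on that library, and the part of ventricular tissue in it was not tested further. Without –dox replicate 1 or 2 this change was called.

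Myl4 and Myl7 showed the mirror image. In the atria they ran from 8780 to 11552 TPM for Myl4 and from 9011 to 14028 TPM for Myl7. With only atrial libraries fitted, Myl4 was higher in +/–dox than in +dox by 0.33 on the log2 scale (95% interval 0.13 to 0.52, adjusted p = 0.0183), under the fold cutoff. Its +/–dox libraries held 11050, 11552 and 11205 TPM and those of +dox 9818, 9301 and 8879 TPM. The –dox libraries, at 11045, 10637 and 10271 TPM, also lay above those of +dox.

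In the ventricle the same genes varied within every cohort. Myl4 was at 77.9, 118 and 14.1 TPM in +dox and at 10.6, 199 and 86.4 TPM in –dox. It was at 129, 65.3 and 70.9 in +/–dox, at 18.2, 29.5 and 53.7 in MBNL1, at 199, 24.6 and 193 in MBNL2 and at 29.7, 130 and 123 TPM in MBNL1+MBNL2 mice. Myl7 followed it, at 79.8, 168 and 13.9 TPM in +dox and 8.33, 226 and 87.7 TPM in –dox. All cohorts overlapped +dox in both genes. The widest log2 fold changes, in MBNL1 mice, were -1.12 ± 0.74 for Myl4 and -1.34 ± 0.79 for Myl7 (adjusted p = 0.365 and 0.305).

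Sln, which encodes the atrial calcium pump inhibitor sarcolipin, moved with both. Over the 18 ventricular libraries, with cohort means removed, Myl4 correlated with Sln at r = 0.99 (rho 0.99; exact permutation within cohorts, adjusted p = 0.000257 and 0.000300) and Myl7 at r = 0.98 (rho 0.98; adjusted p = 0.000257 and 0.000171). Without the 2 libraries farthest from the Sln median, MBNL1 replicate 1 and +dox replicate 3, both r were unchanged to 2 decimals. Bmp10, made in the adult mainly by the right atrium, did not follow: r was 0.14 with Myl4 and 0.14 with Myl7 (exact permutation, adjusted p = 0.795 for both), and -0.05 and -0.03 without –dox replicate 3 and MBNL1+MBNL2 replicate 2.

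Relative to the atrial mean of the same cohort, Myl4 stood at 0.0993 to 2.10% in the ventricular libraries, Myl7 at 0.0764 to 2.10% and Sln at 0.131 to 2.01%. Within a library the 3 were close. In –dox replicate 2 they were 1.86%, 2.08% and 2.01%, in –dox replicate 1 0.0993%, 0.0764% and 0.155%, and in MBNL2 replicate 3 2.03%, 2.10% and 1.82%. Bmp10 stayed between 0.0940 and 0.570%, and was 0.119% in –dox replicate 2. In the MBNL1 ventricles Myl4, Myl7 and Sln reached at most 0.544%, 0.518% and 0.509%. Dkk3, another atrial marker, ran from 0.218 to 4.70% and was highest in MBNL2 replicates 1 and 3, at 4.70% and 4.09%. The part of atrial tissue in these values was not tested.

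**Figure D4:**
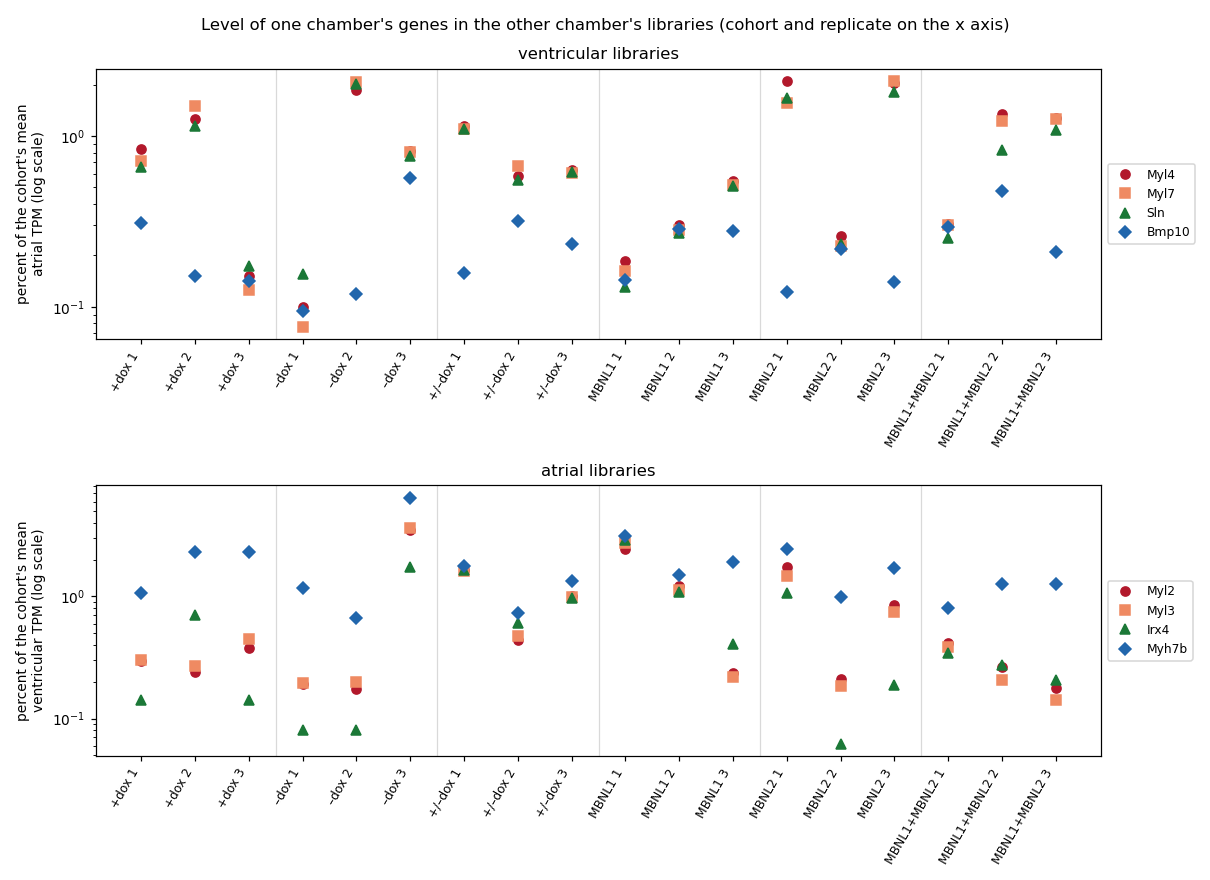
Each library's TPM of genes of the other chamber, as percent (log scale) of the mean TPM of the same cohort in that chamber: Myl4, Myl7, Sln and Bmp10 in ventricular libraries (top), Myl2, Myl3, Irx4 and Myh7b in atrial libraries (bottom). Myl4, Myl7 and Sln lie close together in each ventricular library, between 0.0764% and 2.10%, Bmp10 does not follow them, and in the atria Myl2 and Myl3 lie close together up to 3.61% in –dox replicate 3.

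Expressed as shares, Myl7 made up 0.0587 to 1.41% of the TPM of Myl2 and Myl7 in the ventricle and 94.8 to 99.7% in the atria. Myl4 made up 0.189 to 3.05% of Myl3 and Myl4 in the ventricle and 97.9 to 99.9% in the atria. The lowest atrial shares of both were those of –dox replicate 3, and the highest ventricular share of Myl4 was that of –dox replicate 2.

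Mylk3, the kinase of the regulatory light chains, was higher in the atria of mice off dox and without the repeat RNA by an amount under the fold cutoff. Atrial levels were 350, 399 and 382 TPM in +dox, 409, 450 and 510 in –dox and 483, 485 and 455 in +/–dox, with no overlap of +dox with either. The log2 fold changes were 0.30 ± 0.09 in –dox (adjusted p = 0.0234) and 0.38 ± 0.09 in +/–dox (adjusted p = 0.00501). The adjusted p alone was passed by 15.9% and 12.6% of genes. With 1 library left out, that of Mylk3 reached 0.0979 in –dox and 0.0695 in +/–dox. The MBNL1 atria, at 416, 408 and 446 TPM, also lay above all +dox libraries. Those of MBNL2 (405, 405 and 382 TPM) and MBNL1+MBNL2 (473, 377 and 457 TPM) overlapped +dox. In the ventricle Mylk3 ran from 184 to 248 TPM, and its log2 fold changes of 0.20 ± 0.09 in –dox and 0.21 ± 0.09 in +/–dox had adjusted p = 0.128 and 0.0941.

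In the MBNL cohorts 0 of 9 members were called against +dox in either chamber by edgeR or DESeq2. In the ventricle 2.66% of all genes were called in MBNL1, 1.52% in MBNL2 and 2.65% in MBNL1+MBNL2 mice. In the fit of all libraries 0 members had an unadjusted p under 0.05 in any of the 3 (DESeq2 gave 1, 0 and 0). Of the 19231 tested genes, 4733, 4294 and 4254 had such a p in that fit. With only ventricular libraries fitted, Myh7b had such a p in all 3 (0.0325, 0.0211 and 0.0109) and Myl2 in MBNL2 and MBNL1+MBNL2 mice (0.000204 and 0.0150). In the atria 0.13%, 0.0052% and 0.26% of all genes were called. In the fit of all libraries 2, 0 and 1 members had such a p there, beside 1521, 831 and 1924 of the 19231 genes. The atrial –dox and +/–dox comparisons also called 0 members, beside 5.23% and 3.99% of all genes. An unadjusted p under 0.05 was held by 5 and 2 members, beside 5568 and 4842 of the 19231 genes. DESeq2 called 2 members in –dox, Myh7b and Myl3, and 0 in +/–dox. Atrial Myl3 was at 12.2, 12.3 and 223 TPM in –dox and at 20.8, 18.6 and 31.2 TPM in +dox, so its rise rested on –dox replicate 3. In the edgeR fit of all libraries its log2 fold change was 1.83 (adjusted p = 0.153), and from -0.87 to 2.34 with 1 library left out. All 5 comparisons of a chamber share the same +dox libraries.

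**Figure D5:**
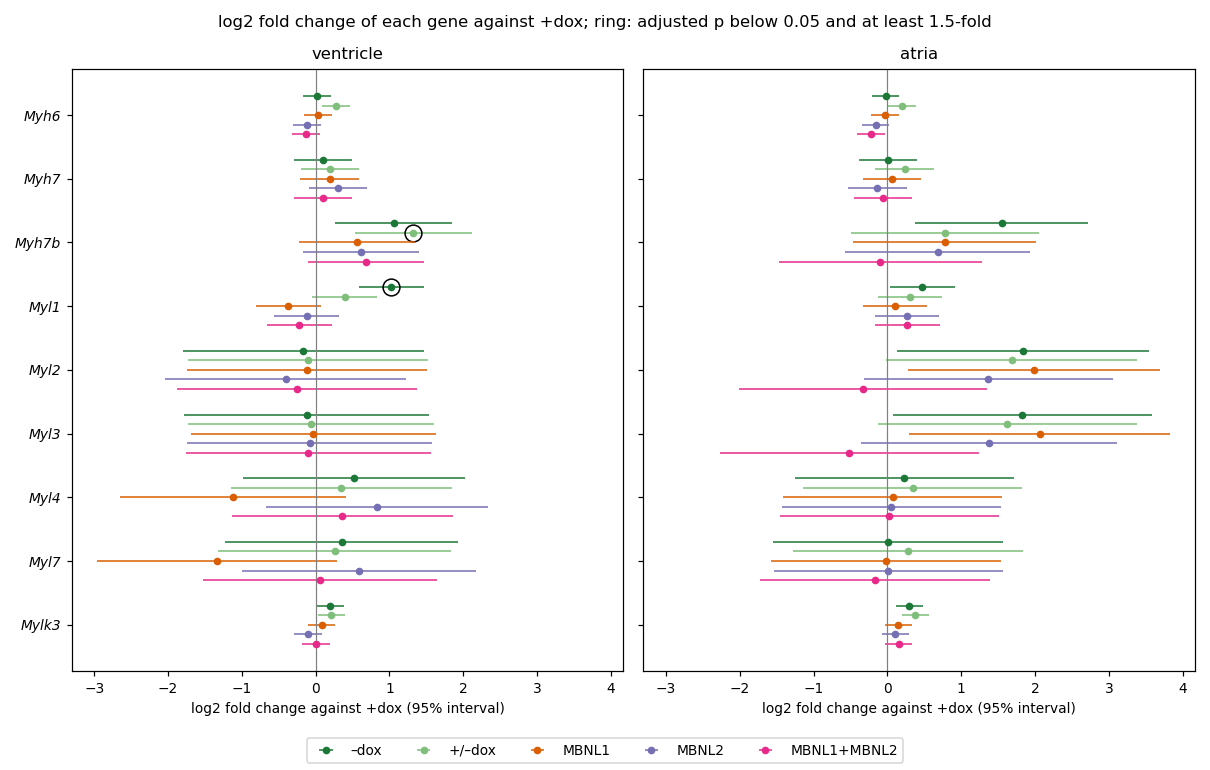
log2 fold change against +dox of each gene in each cohort, with 95% intervals from the fit of all 36 libraries (ventricle left, atria right); a ring marks a call. Only Myl1 in –dox and Myh7b in +/–dox, both in ventricle, are ringed, at 1.03 and 1.32, and the intervals of Myl2, Myl3, Myl4 and Myl7 are the widest.

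Set against +/–dox, the cohort in which the RNA was shut off, 0 members were called in either chamber by edgeR. The share of all genes called in the ventricle was 0.0312% for –dox, 0.868% for MBNL1, 1.57% for MBNL2 and 0.53% for MBNL1+MBNL2. An unadjusted p under 0.05 was held there by 2, 2, 3 and 3 members, beside 1586, 3254, 3528 and 2821 of the 19231 genes. In the atria the called share was 0.0104%, 1.21%, 3.24% and 1.71%. There 1, 2, 2 and 4 members had such a p, beside 907, 3267, 4631 and 3845 of the genes. DESeq2 called Myl1 in ventricular MBNL1 and Myl3 in atrial MBNL1+MBNL2 mice, and no other member. Among the values under the fold cutoff, Myh6 was lower than in +/–dox in MBNL2 mice by 0.39 ± 0.09 on the log2 scale in the ventricle and by 0.36 ± 0.09 in the atria (adjusted p = 0.00917 and 0.00966). In MBNL1+MBNL2 mice Myh6 was lower by 0.41 ± 0.09 and 0.43 ± 0.09 (adjusted p = 0.0140 and 0.00373). With 1 chamber fitted at a time, the ventricular MBNL1+MBNL2 value of Myh6 no longer passed (adjusted p = 0.0970), and the other 3 did. With 1 library left out of the full fit, each of these Myh6 values could lose its pass. The adjusted p then reached 0.105 (ventricle) and 0.102 (atria) in MBNL2 mice, and 0.166 and 0.0507 in MBNL1+MBNL2 mice. Mylk3 was lower in MBNL2 mice by 0.31 ± 0.09 and 0.27 ± 0.09 (adjusted p = 0.0376 and 0.0493), and neither passed with 1 chamber fitted (0.0770 and 0.0554). The atrial fit alone also passed Myh7 in MBNL2 mice (-0.34, adjusted p = 0.00903) and Myl7, Myl4 and Myh7 in MBNL1+MBNL2 mice (-0.43, -0.30 and -0.27; adjusted p = 0.0160, 0.0419 and 0.0428), all under the fold cutoff. In the fit of all libraries the adjusted p alone was passed by 5.39% and 1.77% of genes in these ventricular comparisons. In the atrial ones it was passed by 11% and 6.86%. That share was not counted in the fits of 1 chamber, so the passes there, here and above, have no matching background.

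Whether a cohort's change differed between the chambers was tested for each member. None of the 9 was called in any of the 5 interactions, and 0 had an unadjusted p under 0.05 (DESeq2 called 0, with 1 unadjusted p under 0.05). That fit treats the 2 chambers of a mouse as independent. With same-numbered libraries of a cohort as a block, 0 members were called as well. In only 3 of 6 cohorts did the deviations of all same-numbered ventricular and atrial libraries correlate above 0.1, the lowest value being 0.041. The numbers are thus less certain as pairs in the other cohorts. The background was 0.764% for –dox, 0.489% for +/–dox, 0.0312% for MBNL1, 0.0364% for MBNL2 and 0.0728% for MBNL1+MBNL2. For Myl1 in –dox the atrial change was smaller than the ventricular one by 0.55 on the log2 scale, with a 95% interval from -1.17 to 0.07 (adjusted p = 0.531).

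Other genes of the motor were counted from fixed lists. Of the 11 other myosin heavy chains, 6 were tested. Myh14, a nonmuscle heavy chain, rose in ventricular –dox (log2 1.01 ± 0.13, adjusted p = 1.83e-06) and +/–dox mice (1.03 ± 0.13, adjusted p = 1.60e-06), and by 0.70 in MBNL1 and 0.67 in MBNL1+MBNL2 mice. Its ventricular mean was 12.5 TPM in +dox and 24.8 in –dox. In the atria Myh14 rose by 0.88, 0.84, 0.64 and 0.62 in the same 4 cohorts. It was not called in MBNL2 mice in either chamber. The calls in –dox, +/–dox and ventricular MBNL1 mice stayed when any 1 compared library was omitted. The atrial MBNL1 call was lost without +dox replicate 1 or 3 or MBNL1 replicate 3 (adjusted p up to 0.202). The atrial MBNL1+MBNL2 call was lost without replicate 1 or 3 of either cohort (adjusted p up to 0.121). The ventricular MBNL1+MBNL2 call was lost without +dox replicate 3 (0.58, under the fold cutoff), without MBNL1+MBNL2 replicate 1 (0.41) and with only the compared libraries fitted (adjusted p = 0.126). Myh8, a heavy chain of developing skeletal muscle, fell in –dox and +/–dox mice in both chambers and in ventricular MBNL1 mice, from an atrial mean of 1.87 TPM in +dox to 0.497 in –dox. In the ventricle Myh8 was at or below 0.23 TPM in +dox, and its –dox call was lost when +dox replicate 1, –dox replicate 1 or –dox replicate 3 was omitted (lowest change -1.94, adjusted p = 0.0811) and when only ventricular libraries were fitted (adjusted p = 0.0587). The ventricular MBNL1 call was lost without +dox replicate 1 or MBNL1 replicate 1 or 3 and in the ventricular fit (adjusted p = 0.0810). The atrial calls were lost without any 1 of 4 of the 6 compared libraries in –dox (+dox and –dox replicates 1 and 2) and of 5 of 6 in +/–dox (adjusted p up to 0.0919). Only the ventricular +/–dox call stayed with each library omitted, and it was lost with limma on log2(TPM + 1), which compresses such low levels (-0.18, adjusted p = 0.524).

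Among the 7 kinases and phosphatase subunits of the light chains, all tested, only Mylk4 was called against +dox. It fell by 0.99 ± 0.24 in ventricular –dox (adjusted p = 0.00386), by 1.12 in +/–dox, by 0.79 in MBNL1 and by 0.89 in MBNL1+MBNL2 mice on the log2 scale, and by 1.10 and 1.25 in atrial –dox and +/–dox mice. Its mean in +dox mice was 82.7 TPM in ventricular and 92.2 TPM in atrial libraries. The +/–dox and atrial calls stayed under every alternative run, and the ventricular –dox call was lost with only the compared libraries fitted (adjusted p = 0.159). The MBNL1+MBNL2 call was lost without +dox replicate 3 or MBNL1+MBNL2 replicate 1 or 3 (adjusted p up to 0.116), and both it and the MBNL1 call were lost with only ventricular libraries fitted (adjusted p = 0.0999 and 0.128). The MBNL1 call was also lost when any of the compared libraries but +dox replicate 1 was omitted, with the smallest change without +dox replicate 3 (-0.67, adjusted p = 0.136).

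None of the 6 tested of 7 other light chains was called against +dox in any cohort. Of 9 genes of myosin folding and the thick filament, Myom2, an M-band protein, fell in ventricular MBNL1+MBNL2 mice by 0.95 ± 0.17 (adjusted p = 0.000542), and Mybphl, a myosin-binding protein of the atria, fell in ventricular MBNL1 mice by 1.75 ± 0.54 (adjusted p = 0.0419). Mybphl averaged 15.3 TPM in ventricular +dox and 4.60 in MBNL1 libraries but 947 TPM in atrial +dox libraries. The MBNL1 ventricles held 0.162 to 0.518% of the atrial Myl7 level against 0.125 to 1.51% in +dox. With only ventricular libraries fitted the Mybphl change was -1.76 and not called (adjusted p = 0.210). Adding Sln as a term to that fit gave -1.70, also not called (adjusted p = 0.155). The part of atrial tissue in this change was not tested. The Mybphl call was also lost when any of the compared libraries but +dox replicate 1 was omitted, at -1.23 (adjusted p = 0.207) without +dox replicate 3. Of 11 transcription factors with known myosin targets, only Purb, a repressor of myosin heavy chain genes, was called against +dox, lower by 0.68 ± 0.10 in ventricular +/–dox mice (adjusted p = 9.88e-06).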

How the data were processed

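The authors sequenced stranded poly(A) libraries of left ventricle and atria as paired-end reads. The submitters’ processing notes name STAR 2.7.10b, RSEM 1.3.1 and mm10; whether RSEM was run with a strand setting is not given in the sources used here. The deposited expected counts were rounded to whole numbers before testing. The deposited TPM values, which the authors scaled by transcript length, were used to compare genes and to show levels. The 9 members and all gene lists were chosen with earlier results of these data known.

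Counts of 36 libraries (12 groups of 3, from the sample titles) were fitted with edgeR 4.0.16 in R 4.3.3 (TMM, robust quasi-likelihood test, 1 mean per group). After the filter on low counts 19231 genes were tested, with Benjamini-Hochberg adjustment over all of them. A 95% interval is the log2 fold change with its SE times the t quantile. Correlations used two-sided exact permutation of libraries within cohorts (46656 orders), adjusted over 4 ventricular and 3 atrial pairs. The procedure was tested on simulated data. Replicate libraries differed by more than sampling noise. The labels call them biological replicates. The study's sample list names the same mice for both chambers. In the –dox mice the deviations of same-numbered ventricular and atrial libraries correlated at 0.12, 0.15 and 0.24, so these numbers were taken as pairs for the chamber comparison; there and in the interactions, pairs as a block were added after the data were seen. Genes outside the 9 were named from the lists, at most 4 per list, by size of change among those called; likeness was limited to members called in –dox. Positions are those of GENCODE M21, and 96.4% of symbols matched it. Alternatives were DESeq2 1.42.0, RLE size factors, no filter, fewer libraries, a replicate block, library set as a term, limma 3.58.1 on log2(TPM + 1) and log2(TPM + 0.1), no fold cutoff, and each library left out.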

Additional observations from a re-analysis of the deposited data

How the results depend on the processing

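No result called in the edgeR fit of all libraries changed direction. Myl1 in ventricular –dox mice stayed called throughout, at log2 fold changes from 0.99 to 1.05, and from 0.87 to 1.15 with 1 library left out. The number of members called there, 1, became 2 (Myh7b added) under RLE size factors, library set as a term, ventricular libraries only, limma on log2(TPM + 1) and Sln as a term, the last chosen after seeing the data. In ventricular +/–dox it was 0 to 1 with 1 library left out, 0 without +dox replicate 1 or 3.

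Without a fold cutoff the count was 2 in ventricular +/–dox, 1 in atrial –dox and 1 in atrial +/–dox against +dox. Against +/–dox it was then 2 for MBNL2 and 1 for MBNL1+MBNL2 in each chamber. Where 0 members were called, 1 was called in ventricular MBNL2 mice (Myh7b) when only the compared libraries were fitted or with limma on log2(TPM + 1). For MBNL2 against +/–dox in the ventricle 1 was called with the compared libraries only. For ventricular MBNL1 against +/–dox 1 was called, Myl1 with the replicate block, library set as a term, limma on log2(TPM + 0.1) or DESeq2 and Myh7b with the compared libraries only, and 0 to 1 with 1 library left out, 1 without MBNL1 replicate 2. DESeq2 called 2 in atrial –dox and 1 in atrial MBNL1+MBNL2 against +/–dox; leaving out 1 library gave 0 to 1 in atrial –dox. The causes were not tested.

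The replicate block changed no other count of members called by over 1.5 times. Across cohorts within a chamber, in 0 of 30 pairs of groups did all same-numbered libraries correlate above 0.1, so those numbers were not taken as pairs. With 1 library left out, r with Bmp10 ran from -0.149 to 0.332 for Myl4 and from -0.161 to 0.349 for Myl7. With 3 libraries a group, changes under the intervals given could not be seen, and the spread of Myl2, Myl3, Myl4 and Myl7 was widest in the chamber where they are low.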
